A study of Homo sapiens with 6 samples.

Results

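The nuclear genes for subunits of the mitochondrial respiratory chain and ATP synthase were compared between methotrexate-sensitive and methotrexate-resistant HT29 cells. Members were taken by symbol, as genes whose names begin with NDUFA, NDUFB, NDUFC, NDUFS, NDUFV, UQCR, COX4 to COX8 or ATP5, without assembly factors and pseudogenes. Of 82 such genes in RefSeq, 74 had a probe set of their own among the 19775 genes that did, and 69 were bright enough to be tested among 11835 genes. The tested set held 33 of 33 subunits of complex I, 6 of 6 of complex III, 13 of 17 of complex IV and 17 of 18 of ATP synthase.

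The respiratory chain passes electrons from NADH and succinate to oxygen and pumps protons across the inner mitochondrial membrane. Complex I takes electrons from NADH, complex III passes them from ubiquinol to cytochrome c, complex IV hands them to oxygen, and ATP synthase uses the proton gradient to make ATP. A few core subunits come from mitochondrial DNA, whereas all others, including every gene counted as a member here, are encoded in the nucleus and their products are imported.

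HT29 is an established line from a human colon adenocarcinoma, and methotrexate (MTX) is an antifolate that blocks dihydrofolate reductase. RNA from 3 samples of HT29 sensitive cells and 3 samples of resistant cells was hybridised to Affymetrix HG U133 PLUS 2.0 arrays, which carry several short-probe groups (probe sets) per gene. The sensitive cells were grown in Ham's F12 medium with whole fetal bovine serum and no MTX selection. The resistant cells came from stepwise selection in MTX up to resistance to 10 μM and were kept in medium without glycine, hypoxanthine and thymidine, with dialyzed serum. Resistance, selection history, medium and serum therefore differed together between the groups and cannot be told apart. Nothing in the sources says that the triplicates came from separate cultures, so p-values cover no more than the scatter of these 6 arrays, part or all of which may be technical.

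Signals are given as scaled signals, in which 1 is the median probe set of that array, and changes as log2 of resistant over sensitive. A gene was called lower or higher at an adjusted p under 0.05 in limma with Benjamini-Hochberg adjustment over all 11835 genes. Array medians before scaling lay between 14.2 and 15.4 in sensitive and between 13.3 and 16.9 in resistant cells. The colon epithelial marker EPCAM averaged 322 in sensitive and 319 in resistant cells, while the intestinal factors CDX1 and CDX2 lay under 1 in both groups. Of 10 tested epithelial markers 7 were lower and 1, CDH17, was higher, beside 22.5% and 12.4% of all tested genes. The lower ones were CDH1 (170 against 56.0), KRT8, KRT19, KRT20, VIL1, CEACAM5 and LGALS4. The summed scaled signal of the whole epithelial list went from between 2229 and 2447 to between 1645 and 1867. Of 10 markers of other cell types, ACTA2 was higher at 1.62 against 3.21 and PECAM1 was not called. COL1A1 averaged 0.740 against 11.8 and passed the filter through the resistant arrays alone, while PTPRC, CD3E, VWF, PDGFRB and ALB averaged under 1 in both groups. Their sum lay between 5.23 and 5.87 in sensitive and between 18.0 and 21.7 in resistant cells. The part of these marker differences in the subunit results was not tested.

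The start regions of 4 genes are printed here because they belong to the subunits with the largest rise and the largest fall in complex I (NDUFS6 and NDUFB2) and in complex IV (COX6B1 and COX5A). Each line gives the 250 bases before the RefSeq start in GRCh38.p14, 5′ to 3′ on the gene's strand, with the letters of a searched motif in capitals. The regions lie at chr5:1801157-1801406 on the plus strand for NDUFS6, chr7:140696458-140696707 on the plus strand for NDUFB2, chr19:35648073-35648322 on the plus strand for COX6B1 and chr15:74938074-74938323 on the minus strand for COX5A.
NDUFS6: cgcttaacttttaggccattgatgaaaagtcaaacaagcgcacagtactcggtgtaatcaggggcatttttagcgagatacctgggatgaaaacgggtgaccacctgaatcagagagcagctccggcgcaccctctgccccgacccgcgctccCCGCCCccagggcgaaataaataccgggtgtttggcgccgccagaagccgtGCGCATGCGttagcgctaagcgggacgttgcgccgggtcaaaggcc
NDUFB2: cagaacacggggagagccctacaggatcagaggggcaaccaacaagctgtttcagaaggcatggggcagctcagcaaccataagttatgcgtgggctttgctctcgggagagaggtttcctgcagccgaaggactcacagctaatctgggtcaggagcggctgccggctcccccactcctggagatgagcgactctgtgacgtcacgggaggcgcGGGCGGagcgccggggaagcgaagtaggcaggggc
COX6B1: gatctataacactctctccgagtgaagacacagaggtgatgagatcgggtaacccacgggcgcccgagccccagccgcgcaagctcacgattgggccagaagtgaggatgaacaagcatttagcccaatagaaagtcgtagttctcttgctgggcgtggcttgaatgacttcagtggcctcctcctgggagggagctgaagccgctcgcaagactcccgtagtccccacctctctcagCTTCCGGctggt
COX5A: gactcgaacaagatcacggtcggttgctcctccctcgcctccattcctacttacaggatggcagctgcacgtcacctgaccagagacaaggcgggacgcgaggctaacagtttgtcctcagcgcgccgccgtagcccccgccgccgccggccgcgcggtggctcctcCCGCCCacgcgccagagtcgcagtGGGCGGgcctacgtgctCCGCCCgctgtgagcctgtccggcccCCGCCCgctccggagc

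The capitals in NDUFS6 are 1 SP1 match on the other strand and the core GCGCATGCG of nuclear respiratory factor NRF1, a regulator of many genes of oxidative phosphorylation. The capitals in NDUFB2 and COX5A are SP1 matches on either strand, 1 and 4 in number, and those in COX6B1 are the ETS motif on the other strand. Motifs were searched on both strands from 250 bases before to 50 after the start, in 74 promoters of 61 tested subunits and in all 35116 RefSeq promoters of that length. The NRF1 core GCGCATGCG was present in 13.5% of subunit promoters and in 1.92% of all promoters. The YY1 motif AAGATGGC was present in 16.2% against 2.89%, and the ETS motif CCGGAAG, of the family that includes GABPA, in 25.7% against 10.3%. The SP1 motif GGGCGG was found in 64.9% against 45.0% and the NFY motif CCAATCA in 8.11% against 6.95%. The motifs were counted independently, so that one promoter may count for several and matches may overlap. A match is a run of letters and not a measured binding site. By direction of change, the NRF1 core was in 0 of 8 promoters of lower subunits, in 2 of 12 of higher subunits (NDUFA5 and NDUFS6) and in 8 of 54 of those not called. YY1 letters were in 3 of 8, 2 of 12 and 7 of 54, in the same order. These counts are too few to order the classes.

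Of the 69 subunit genes, 10 were lower and 10 were higher in resistant cells and 49 were not called. Both shares were 14.5%, beside a background of 22.5% of all genes lower and 12.4% higher. All subunit changes were small. The median log2 change of the subunits was -0.05 and that of all genes was -0.10, with single subunits from -0.66 for NDUFB2 to 0.64 for COX6B1. These ends correspond to 0.634-fold and 1.56-fold, so 0 of 69 subunits reached the 3-fold change that the study's methods required, against 4.13% of all genes that did so with an adjusted p under 0.05 in limma. Without that fold threshold 12 subunits were lower and 12 higher at an unadjusted p under 0.05. Of the 49 subunits not called, 42 had a 95% interval within 0.5 log2 on either side of 0. The sensitive and resistant arrays did not overlap for 25 subunits, or 36.2%, beside 46.2% of all genes.

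**Figure D1:**
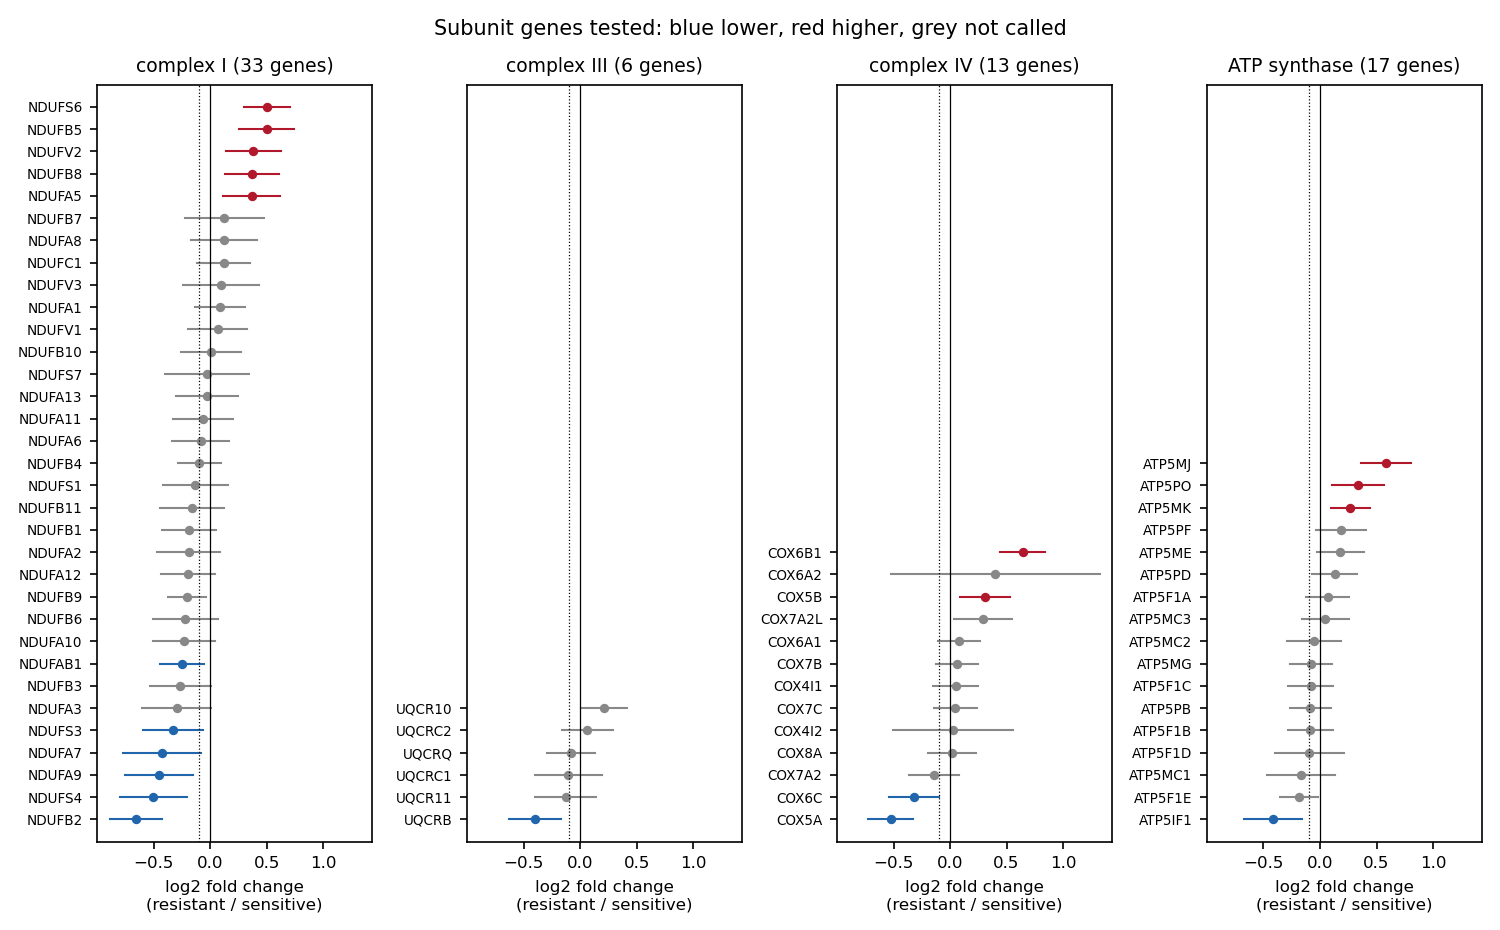
Log2 fold change of each tested subunit gene, resistant over sensitive, in 4 panels by complex, with points for the limma estimate, bars for its 95% interval, a solid line at 0 and a dotted line at the median of all genes. Blue points mark the 10 lower, red the 10 higher and grey the 49 subunits not called, and each panel except complex III holds both called directions.

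The split of calls moved with the scaling of the arrays. After quantile normalization 10 subunits were lower and 19 higher, with a median of 0.09, while the median of all genes moved to 0.02 and the shares of all genes were 18.9% lower and 21.1% higher. No subunit called in one direction was called in the other under any of the 19 alternatives run. Leaving out sensitive replicate 1 gave 3 lower subunits, and leaving out resistant replicate 2 or 3 gave 5 each. Leaving out sensitive replicate 2 or 3 gave 5 higher subunits each, and leaving out resistant replicate 1 gave 15 lower. Shares of all genes with an array left out are not given beside these counts. NDUFB2, NDUFS6, NDUFB5, UQCRB, COX5A, COX6B1 and ATP5MJ, 7 subunits in all, kept their call whichever array was left out.

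Complex I held 6 lower and 5 higher subunits of 33, with a median log2 change of -0.09. After quantile normalization 5 were lower and 9 higher, with a median of 0.06. NDUFB2, a supernumerary subunit of the membrane arm, had scaled signals of 169, 151 and 158 in the sensitive replicates 1 to 3 and 109, 94.3 and 101 in the resistant ones. Its lowest sensitive array stood well above its highest resistant array. The log2 change was -0.66 (SE 0.115, adjusted p = 1.8e-05, limma), and its other probe sets also lay below 0. NDUFS4, an accessory subunit near the NADH-oxidising module, measured 66.3, 56.1 and 56.0 in sensitive and 49.3, 41.5 and 35.8 in resistant cells. All 3 resistant arrays lay under the sensitive ones, with a log2 change of -0.50 (SE 0.147, adjusted p = 0.0070, limma). NDUFA9, an accessory subunit of the ubiquinone-reducing module, measured 65.5, 56.1 and 53.3 against 48.6, 35.9 and 43.9, again with no overlap. The log2 change came to -0.45 (SE 0.148, adjusted p = 0.015, limma).

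The remaining lower subunits of complex I changed less. NDUFS3, a core subunit, fell from between 84.6 and 99.6 to between 64.5 and 81.3, a log2 change of -0.33. NDUFAB1, the mitochondrial acyl carrier protein, fell from between 274 and 293 to between 217 and 263, a log2 change of -0.25. NDUFA7, a supernumerary subunit, measured 20.5 to 29.7 in sensitive and 16.2 to 21.6 in resistant cells, with a log2 change of -0.42. NDUFA7 was the 1 called subunit of 20 whose groups overlapped, although a call made on the same arrays favours separate groups. These 3 calls were the closest to the threshold, with adjusted p = 0.046 for NDUFS3, 0.039 for NDUFAB1 and 0.048 for NDUFA7 in limma. Each lost its call when sensitive replicate 1 was left out, with adjusted p = 0.22, 0.092 and 0.30 in the same order, and also without sensitive replicate 2 or resistant replicate 2 or 3 (limma, adjusted p between 0.061 and 0.18). NDUFS3 and NDUFAB1 lost theirs without sensitive replicate 3 as well (adjusted p = 0.098 and 0.12 in limma). NDUFS4 lost its call without sensitive replicate 1 or resistant replicate 3 (adjusted p = 0.063 and 0.070, limma), and NDUFA9 without sensitive replicate 1 or resistant replicate 2 (adjusted p = 0.12 and 0.078, limma).

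NDUFS6, a zinc-binding accessory subunit of the matrix arm whose start region with the NRF1 core is printed above, rose in resistant cells. Its scaled signals were 241, 191 and 199 in sensitive and 325, 281 and 287 in resistant cells. The groups did not overlap, and the log2 change was 0.50 (SE 0.101, adjusted p = 0.00013, limma). NDUFB5, a membrane arm subunit, measured 101, 98.2 and 90.8 against 154, 138 and 121, with every resistant array above every sensitive one. A log2 change of 0.50 was estimated (SE 0.120, adjusted p = 0.0011, limma). NDUFV2, a core subunit that holds an iron-sulfur cluster, measured 138, 114 and 101 against 163, 144 and 149, so that sensitive replicate 1 came close to resistant replicate 2. Its log2 change was 0.38 (SE 0.120, adjusted p = 0.011, limma), and without sensitive replicate 3 it was 0.28 (adjusted p = 0.14, limma).

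NDUFB8 of the membrane arm and NDUFA5 of the matrix arm were also higher, each with a log2 change of 0.37. NDUFB8 lay between 97.9 and 108 in sensitive and between 125 and 144 in resistant cells, and NDUFA5 between 80.9 and 85.2 and between 97.8 and 119, neither with overlap. The call of NDUFB8 was lost without sensitive replicate 2 or 3 (adjusted p = 0.071 and 0.068, limma) and that of NDUFA5 without any 1 of the 3 sensitive arrays (adjusted p from 0.053 to 0.084, limma). The second probe set of NDUFB8 by signal gave a log2 change of 0.08 and its dimmest one -0.12, neither called, so its rise rests on 1 of 3 probe sets. NDUFB9, the complex I subunit with the highest signal, measured 409, 391 and 388 against 356, 333 and 342. Its groups did not overlap, but it missed the call with a log2 change of -0.20 (adjusted p = 0.054, limma). Of the 5 tested core subunits 1 was lower and 1 higher, and of the 28 supernumerary subunits 5 were lower and 4 higher, so both directions occurred in both classes.

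**Figure D2:**
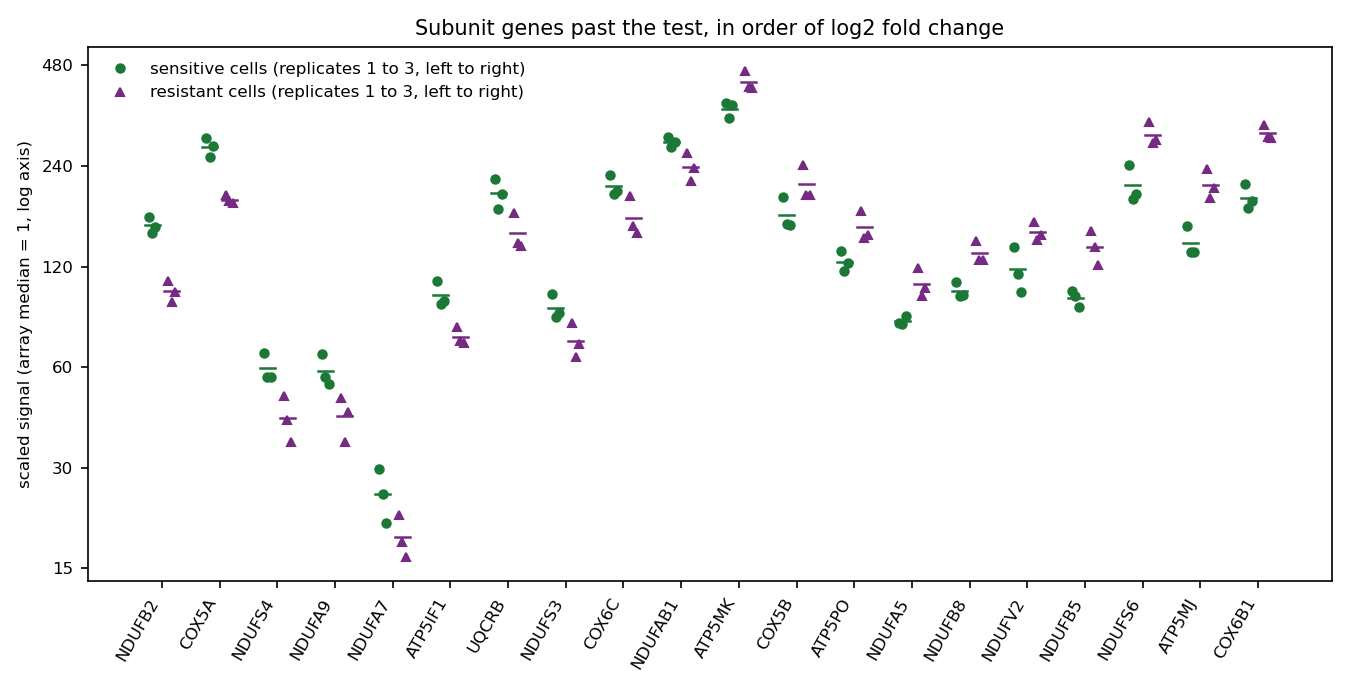
Scaled signal on a log axis of the 20 called subunits in each array, circles for sensitive and triangles for resistant cells, replicates 1 to 3 from left to right and a bar at each group mean, in order of log2 fold change. The groups stand apart for 19 of the 20 genes and overlap for NDUFA7, and replicate 1 is the highest array of its group for most genes. The genes were called on these same arrays, which favours such a separation, so it is no evidence of its own.

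In complex III, 1 of 6 subunits was lower and 0 were higher in limma, and 1 was higher at an unadjusted p under 0.05. The methods' t-test, run here with equal variances because the methods do not state this, and the unequal-variance test called 0 of 6 in either direction after adjustment and 1 lower before it. UQCRB, the ubiquinone-binding subunit, measured 219.8, 179 and 198 in sensitive and 174, 141 and 138 in resistant cells. The arrays of the groups did not overlap, and the log2 change was -0.40 (SE 0.112, adjusted p = 0.0049, limma). The call was lost when all probe sets of the gene were averaged, at -0.22. A second bright probe set of UQCRB gave -0.33 (adjusted p = 0.035 in the limma fit over probe sets), whereas a dim one gave 0.07. UQCR10, a small membrane subunit, was the brightest of the complex at 233, 200.2 and 221 against 280.2, 226 and 252, with overlapping groups. It was not called at a log2 change of 0.21 (adjusted p = 0.10, limma), although a dimmer probe set of the gene was called higher at 0.53. UQCRH and its copy UQCRHL share 1 probe set, so neither has a value of its own.

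In complex IV, 2 of 13 subunits were lower and 2 higher. COX6B1, the subunit on the intermembrane side, had the largest rise of all subunits. Its scaled signals were 211, 179 and 188 in sensitive and 318, 292 and 292 in resistant cells. The groups were far apart, with a log2 change of 0.64 (SE 0.0977, adjusted p = 1.6e-06, limma). COX5A, a subunit on the matrix side, went the other way, at 291, 256 and 275 against 196, 188 and 185. Its 3 resistant arrays were nearly equal and all lay far under the sensitive ones, with a log2 change of -0.53 (SE 0.0974, adjusted p = 4.1e-05, limma). COX5B, also on the matrix side, measured 194, 161 and 159.6 against 241, 197 and 197, with resistant replicates 2 and 3 just above sensitive replicate 1. The estimated log2 change was 0.30 (SE 0.109, adjusted p = 0.027, limma), while its other 3 probe sets showed between 0.15 and 0.18 and were not called. COX6C, a membrane subunit, measured 225, 198 and 202 against 195, 159 and 152, with resistant replicate 1 just under the sensitive arrays. This gave a log2 change of -0.32 (SE 0.109, adjusted p = 0.021, limma).

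COX5B and COX6C each depended on single arrays. COX5B lost its call without sensitive replicate 2 or 3 or resistant replicate 1 (adjusted p from 0.11 to 0.14, limma). COX6C lost its call without sensitive replicate 1 or resistant replicate 2 or 3 (adjusted p from 0.073 to 0.13, limma). COX5A and COX6B1 kept theirs, and both were lost in 1 of 19 alternatives, the unequal-variance test.

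Several complex IV subunits have a widely expressed isoform, such as COX4I1, COX6A1 and COX7A2, and others restricted to particular tissues. COX4I1 lay between 227 and 269 over all 6 arrays with a log2 change of 0.05, and COX4I2 between 2.33 and 3.31 with 0.03. COX6A1 lay between 258 and 311 with a log2 change of 0.08, and the muscle form COX6A2 between 0.592 and 2.21 with 0.40 (95% interval -0.52 to 1.32). Neither form of either gene was called. COX7A2 lay between 175 and 233 with a log2 change of -0.14, and COX7A2L, which takes part in joining complexes into supercomplexes, lay between 72.9 and 82.6 against between 88.2 and 105 and was not called (log2 change 0.29, adjusted p = 0.068, limma). COX8A showed 0.02. COX6B2, COX7A1, COX7B2 and COX8C, which are best known from testis or muscle, were below the filter with a mean scaled signal under 1 and were not tested, and ATP5MF of ATP synthase was below it too. COX7C, the brightest gene of complex IV, lay between 276 and 327 in all 6 arrays with a log2 change of 0.05 (95% interval -0.14 to 0.23). COX7B was not called by its brightest probe set (log2 change 0.06) but was by a dim one (0.85).

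A subunit formerly named NDUFA4 is now COXFA4 and belongs to complex IV, so the symbols left it outside the counts. COXFA4 measured 172, 166 and 175 in sensitive and 222, 177 and 229.9 in resistant cells, with resistant replicate 2 close to the sensitive arrays. Its log2 change was 0.29 (SE 0.108, adjusted p = 0.036, limma), and the call was lost in 8 of 19 alternatives. COXFA4L2, a paralog known to be induced by low oxygen, was listed at 0.613, 0.267 and 0.208 in sensitive and at 3.80, 3.01 and 2.19 in resistant cells. All 3 resistant arrays were above all sensitive ones. Every sensitive signal was under the filter value of 1 and the gene passed the filter through the resistant arrays alone, so no fold change or test is given.

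In ATP synthase, 1 of 17 subunits was lower and 3 were higher. After quantile normalization these counts were 2 and 6, and after division by the median of bright probe sets 1 and 6. The share of all genes under that last setting is not given, so its counts stand without a background. The lower gene in the main fit was ATP5IF1, the inhibitor that blocks ATP hydrolysis by the enzyme. It was counted by its symbol and is not a structural subunit. ATP5IF1 measured 109, 92.6 and 94.9 in sensitive and 79.2, 71.8 and 70.8 in resistant cells. The groups did not overlap, with a log2 change of -0.42 (SE 0.127, adjusted p = 0.0094, limma). Without sensitive replicate 1 it was -0.34 (adjusted p = 0.082, limma). Of its other probe sets 1 was also lower and 1, with a mean scaled signal of 51.6, showed 0.00.

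The 3 higher subunits lie in the membrane part and the peripheral stalk. ATP5MJ, a small membrane-associated subunit, measured 158, 132 and 132 in sensitive and 235, 192 and 206 in resistant cells, with no overlap. Its log2 change was 0.58 (SE 0.110, adjusted p = 6.0e-05, limma). ATP5PO, the stalk subunit that confers oligomycin sensitivity, measured 134, 116 and 123 against 177, 147 and 149. All resistant arrays were above the sensitive ones, with a log2 change of 0.34 (SE 0.114, adjusted p = 0.019, limma). ATP5MK, a small subunit tied to dimers of the enzyme, measured 369, 333 and 365 against 461, 414 and 412, also without overlap. Its log2 change was 0.27 (SE 0.0846, adjusted p = 0.012, limma). ATP5PO lost its call without sensitive replicate 2 or 3 or resistant replicate 1 (adjusted p = 0.11, 0.073 and 0.068, limma) and ATP5MK without sensitive replicate 2 or resistant replicate 1 (adjusted p = 0.076 and 0.073, limma). A dimmer probe set of ATP5PO showed a log2 change of -0.08.

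The catalytic head and the proton-carrying ring showed no calls. Of the 5 subunits of the F1 head, ATP5F1A to ATP5F1E, 0 were lower and 0 higher in limma or by either other test, with log2 changes from -0.19 to 0.07. In limma 1 of them, ATP5F1E, was lower at an unadjusted p under 0.05. The same gene was called lower in 4 of 19 alternatives, among them quantile normalization. ATP5F1E, the brightest of all subunits, measured 438, 434 and 439.6 against 417, 365 and 373. Its groups did not overlap, with a log2 change of -0.19 (adjusted p = 0.076, limma). The 3 genes for the same c-ring protein showed -0.17 for ATP5MC1, -0.05 for ATP5MC2 and 0.05 for ATP5MC3 on the log2 scale, with 95% intervals reaching from -0.47 to 0.26 over the 3 genes.

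The summed scaled signal over the subunits, which weights bright probe sets most, was 10561 ± 723 over the sensitive and 10625 ± 884 over the resistant arrays (SD, n = 3 each). The sums were 3554 ± 258 against 3465 ± 315 for complex I and 919 ± 81.5 against 893 ± 83.4 for complex III. They were 2438 ± 179 against 2507 ± 187 for complex IV and 3650 ± 211 against 3759 ± 303 for ATP synthase (SD, n = 3 for each). Every difference of the group means was smaller than the SD of either group. Much of that spread came from 1 array a group. Of 69 subunits, 61 were highest within the sensitive cells in replicate 1 and 66 were highest within the resistant cells in replicate 1. Over all genes these shares were 55.4% and 70.9%, and the arrays concerned had the lowest median of their group, by which their signals were divided.

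**Figure D3:**
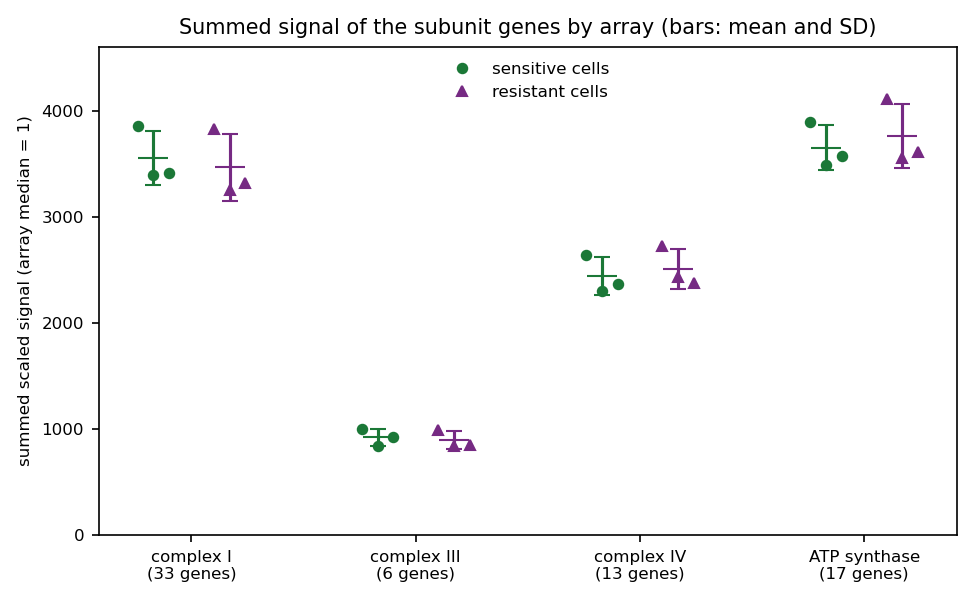
Summed scaled signal of the tested subunits of each complex, with circles for sensitive and triangles for resistant arrays, replicates 1 to 3 from left to right, and bars at the mean and SD. In each complex the 2 groups overlap and replicate 1 is the highest array of both groups.

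Ratios within an array do not change when the array is divided by a constant, although quantile normalization can move them, and they show how unequally subunits of one complex changed. The gene with the largest and the gene with the smallest log2 change of each complex were set against each other, so the direction was fixed by this choice and no test was made. A ratio of signals from different probe sets says nothing of the ratio of the transcripts, and only its change is read. COX6B1 over COX5A was 0.704 ± 0.0219 among sensitive and 1.58 ± 0.0363 among resistant arrays, a 2.25-fold change (SD, n = 3). NDUFS6 over NDUFB2 went from 1.32 ± 0.0946 to 2.94 ± 0.0722, and ATP5MJ over ATP5IF1 from 1.43 ± 0.0316 to 2.85 ± 0.152 (SD, n = 3). UQCR10 over UQCRB went from 1.10 ± 0.0347 to 1.68 ± 0.128 (SD, n = 3). In all 4 complexes the ratios of the 3 replicates lay closer to each other than the groups did. The choice of the extreme genes in these same arrays favours such a separation, so it is no evidence of its own.

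Genes that serve the same pathway without being subunits of this set are given beside the same background of 22.5% lower and 12.4% higher. Counts after quantile normalization, here and in the next paragraph, go beside the shares of all genes given above for that setting. Those shares were smaller for lower and larger for higher genes than in the main fit. Among 17 assembly factors of complex I, 9 were lower (52.9%) and 0 higher in limma, with a median log2 change of -0.38, and 1 was higher after quantile normalization beside 8 lower. The methods' t-test, again with equal variances, called 3 of them lower and the unequal-variance test 0, with 8 and 5 lower and 0 higher at an unadjusted p under 0.05. TMEM70, which helps to assemble complex I and ATP synthase, averaged 84.2 ± 6.03 against 43.1 ± 5.78 (SD, n = 3 per group, sensitive first). NDUFAF4 averaged 77.8 ± 6.28 against 40.5 ± 6.75, and NDUFAF6 had a log2 change of -0.88. Of 10 assembly factors of complexes II and III, 4 were lower and 1 higher, with UQCC1 at -0.85, UQCC3 at -0.76 and SDHAF4 at -0.64 on the log2 scale. Of 26 factors of complex IV, 6 were lower (23.1%) and 4 higher (15.4%), shares near the background, with COA5 at 0.81, COA8 at 0.65 and COA7 at -0.59. After quantile normalization these became 3 lower and 7 higher. Among 5 factors of ATP synthase, FMC1 was lower at -0.84.

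Complex II, which oxidises succinate, and the electron carriers gave 2 lower and 1 higher of 10, and 2 and 4 after quantile normalization. Cytochrome c1 (CYC1), a catalytic subunit of complex III that its symbol kept out of the set, averaged 141 ± 21.4 against 90.5 ± 11.8 (SD, n = 3 per group, sensitive first), a log2 change of -0.64 (adjusted p = 0.00012, limma). The electron transfer flavoprotein moved in both directions, with ETFB at 0.46 and ETFA at -0.30 on the log2 scale. Of 13 subunits encoded in mitochondrial DNA 7 were tested, with MT-ND6 lower at -1.05 and MT-CO3 higher at 0.41. The other 5 were not called, with a median of -0.04 over the 7. Of 13 genes of coenzyme Q synthesis 5 were lower and 1 higher, with COQ8A at 0.72, COQ3 at -0.62 and COQ7 at -0.56. Of 17 tested genes of mitochondrial transcription and its regulators 4 were lower and 1 higher, and 4 and 5 after quantile normalization. GABPB1, the partner of the ETS factor GABPA, averaged 18.7 ± 1.53 against 8.79 ± 1.73 (SD, n = 3 per group, sensitive first), a log2 change of -1.10. POLG, the polymerase of mitochondrial DNA, showed -0.75 and MTERF1 -0.65.

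The changes of the subunits were also set beside their chromosomal surroundings, a comparison added after the values were seen. For each subunit the median log2 change of the 10 measured genes on either side in RefSeq order was taken, or of 14 genes in all for ATP5ME. Over the 69 subunits the change of the gene correlated with that of its neighbours at Pearson's r = 0.57 and Spearman's rho = 0.58, against 0.33 and 0.33 over 11815 genes. Genes that lie close together share neighbours and arrays, so these values are descriptions without a p-value. The subunits were measured more precisely than most genes, with a median limma SE of 0.118 against 0.178 over all tested genes. The subunit and all-gene correlations are therefore not a like comparison, and a difference between them was not tested. With 5 or 20 genes on either side the r of the subunits was 0.62 and 0.60. After quantile normalization it was 0.56, and it lay between 0.53 and 0.57 with any 1 array left out. The neighbours of 8 of 10 lower subunits had a median below that of all genes, as did those of 35 of 49 subunits not called, and those of 9 of 10 higher subunits had one above it. The median of the neighbour medians was -0.29 for lower, 0.23 for higher and -0.16 for not called subunits.

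UQCRB and COX6C lie on the long arm of chromosome 8 among genes that were lower, with 14 and 13 of their 20 neighbours called lower and neighbour medians of -0.82 and -0.70. Both subunits changed less than these neighbours, at -0.40 and -0.32. Subunits that were not called also lay in such surroundings on other chromosomes. NDUFB6 on chromosome 9 had 17 of 20 neighbours lower (own change -0.22). COX7A2 on chromosome 6 had 12 (-0.14) and NDUFV3 on chromosome 21 had 10 (0.10). The pathway genes in the stretch of chromosome 8 in RefSeq order were TMEM70, NDUFAF6, UQCRB, COX6C, NDUFB9 and CYC1, of which 5 of 6 were lower. NDUFB9 was not called, at -0.20 beside 12 of 20 neighbours lower. Of all 189 tested genes from TMEM70 to CYC1, 113 were lower and 8 higher, with a median of -0.55. The ends of this stretch were set by pathway genes that were themselves called lower. Over all 410 tested genes of chromosome 8, 37.1% were lower and 26.8% higher. COX5A lies on chromosome 15, where 49.0% of 386 tested genes were lower, and its neighbours had a median of -0.35. The other pathway genes there, NDUFAF1, GABPB1, ETFA and POLG, were lower as well, making 5 of 5. On chromosome 10, by contrast, 1 of 8 pathway genes was lower and 4 were higher, beside 15.8% and 28.8% of all tested genes there. Of 10 pathway genes on chromosome 7, 4 were lower and 1 was higher, beside 28.7% and 10.1%. NDUFB2 on chromosome 7 had neighbours at -0.47.

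Among higher subunits, COX6B1 on chromosome 19 had 10 of 20 neighbours higher and 0 lower in limma, with a median of 0.51. NDUFB8 and ATP5MK on chromosome 10 had 13 and 11 of 20 higher and medians of 0.48 and 0.57, above their own changes of 0.37 and 0.27. ATP5MJ on chromosome 14 had neighbours at 0.38. NDUFA5 and ATP5PO rose while their neighbours stood at -0.24 and -0.04, and NDUFA9 and NDUFA7 fell beside neighbours at -0.02 and -0.03. COX7C, on chromosome 5 between EDIL3 and CCNH in the order of measured genes, had the highest neighbour median of all subunits at 1.19, with 11 of 20 neighbours higher and 2 lower. Its own log2 change was 0.05, which was 1.15 below its neighbours.

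**Figure D4:**
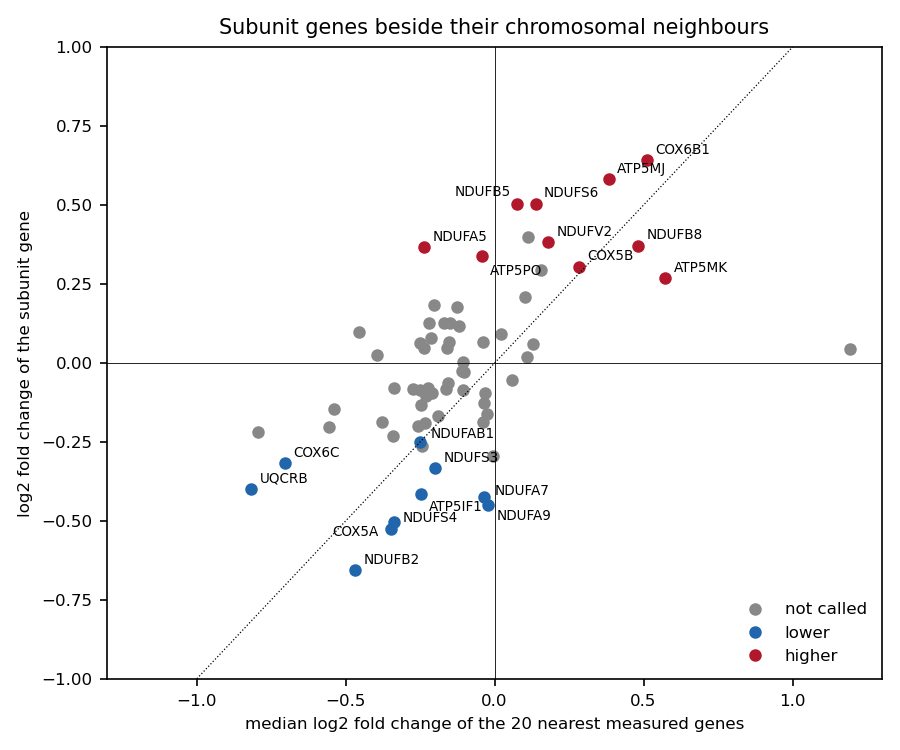
Log2 fold change of each of the 69 subunit genes (vertical) against the median log2 fold change of its 20 nearest measured genes, 14 for ATP5ME (horizontal), with lines at 0 and a dotted line of equality, blue for lower, red for higher and grey for not called subunits. Most lower subunits sit at lower left and most higher ones at upper right, with NDUFA5 and ATP5PO to the left of 0 and COX7C, the grey point at the far right, at 1.19 on the horizontal axis.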

How the data were processed

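Expression was measured in 3 HT29 sensitive and 3 resistant samples, grouped by the labels. Per the labels, the deposited values are MAS5 signals, which are linear intensity values for each probe set. For MAS5, no version was stated in the sources. The steps in GeneSpring described in the methods (division by medians, filters, t-test) come after these values. The table held 54675 probe sets, of which 62 controls were left out. Platform annotation gave 41091 probe sets 1 gene, 1801 several and 11721 none, and 41037 of the first matched RefSeq (GRCh38.p14) by Entrez identifier. Each signal was divided by the array median, values under 0.01 were set to 0.01, and the brightest probe set of each gene was kept. Genes whose mean over the 6 arrays was at least 1 were fitted in limma 3.58.1 under R 4.3.3 (lmFit, then eBayes allowing a trend of variance with signal), a procedure tested on simulated data. Figures used matplotlib 3.10.9.

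The members and lists were chosen with earlier results of these data known. Genes named with full values were, per complex, up to 6 called subunits with the largest change and no overlap between groups, all isoform families, ATP5IF1 and the brightest subunit. For other lists up to 3 were named. Further called subunits, COX7B and the neighbour comparison were added after values were seen.

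Of the 8 subunit genes with no probe set of their own, UQCRH and UQCRHL share one, NDUFS5, NDUFS8 and NDUFC2 share theirs with other genes, and 3 are not analysed here. Of the brightest probe sets of the tested subunits, 35 carry the suffix for several transcripts and 5 that for possible cross-hybridisation. The number of arrays limits the precision. No scan dates were given, so batches were not tested. Alternatives were the scaling, the floor, the filter, the choice of probe set, the test, a replicate block and leaving out each array.

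Same-numbered sensitive and resistant arrays correlated in their deviations from the group means at 0.075, 0.023 and 0.048. Arrays of different numbers gave between -0.067 and 0.015. All these values were small, so the numbers were not taken to pair the samples, and a replicate block was run as an alternative.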

Additional observations from a re-analysis of the deposited data

How the results depend on the processing

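In 19 alternatives no named subunit changed direction with a call, and the counts below give lower and higher subunits of 69, against 10 and 10. Apart from quantile normalization, treated above, the shares of all genes under these settings are not given. The counts alone therefore cannot tell a shift of the subunits from a shift of all genes. Higher subunits numbered 19 after quantile normalization (median log2 change 0.0852) and 16 when arrays were divided by the median of bright probe sets (those kept by the filter). Without the filter on dim signals 6 were lower and 6 higher. The methods' t-test, run with equal variances by choice, gave 3 and 1, limma without a trend 2 and 4, and the unequal-variance test 0 and 0, with 6 and 9 at an unadjusted p under 0.05. Leaving out single arrays gave 3 to 15 lower, 5 to 11 higher and medians from -0.12 to 0.02. With the replicate block 14 were lower and 12 higher, among them all 10 and 10. In deviations from the group means, each array correlated best with the same-numbered array of the other group, though weakly. Averaging all probe sets of a gene gave 7 and 8. The cause of these shifts was not tested. Among named subunits without a call, NDUFB9, UQCR10, COX7A2L and ATP5F1E gained one in 4 of the 19 alternatives each and COX7A2 in 1. Of the 19 alternatives, calls were lost in 1 (the unequal-variance test) for NDUFB2, COX5A and COX6B1, in 2 for NDUFS6, NDUFB5 and ATP5MJ, in 4 for UQCRB, in 5 for NDUFS4, NDUFA9, NDUFV2 and ATP5IF1, in 6 for ATP5MK, in 7 for COX6C and in 8 for COX5B and ATP5PO.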
